A study of Oryza sativa with 6 samples.

Results

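The miR812, miR814, miR818 and miR820 families of rice were followed in small RNA libraries from leaf. Their members were taken by name: every entry of the miRNA table numbered miR812, miR814, miR818 or miR820 was kept, whatever the letters after the number and on either arm of the hairpin. This gave 10 of the 479 names in the table, which carried 8 distinct sequences out of 454. There were 4 names of miR812, 1 of miR814, 1 of miR818 and 4 of miR820, and 3 of the miR820 names shared 1 sequence. The choice by name used no measured value, but it was made with earlier results of these data known.

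Leaves of CA21, a rice that is not transgenic and survives glyphosate, were the source of all libraries. It was made by mutagenesis with gamma rays and ethyl methanesulfonate, followed by crosses and backcrosses to P1003, a glyphosate-sensitive rice, so control and treated plants shared that genetic background and no second genotype was measured here. Seedlings that had reached the third-leaf stage were either sprayed with a glyphosate solution of 2 mg per ml (the GLY group) or not treated (the CK group), with 3 libraries in each group, and leaves were taken once all P1003 plants had died. Glyphosate is a herbicide that inhibits an enzyme of the shikimate pathway, by which plants make aromatic amino acids. The study asked which small RNAs respond to the spray. Whether each library stands for its own plants is not stated in the labels, and no miRNA list defines leaf, so that identity could not be checked by markers.

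Most plant miRNAs are cut by DICER-LIKE 1 and act on messenger RNA through AGO1. In rice, a class of longer miRNAs is cut by DICER-LIKE 3, is loaded on proteins of the AGO4 clade and can direct DNA methylation. The miR820 hairpins lie inside CACTA DNA transposons, and mature miR820 targets OsDRM2, a de novo DNA methyltransferase that takes part in silencing transposons. The miR812 hairpins have been traced to miniature inverted-repeat transposable elements, and miR814 and miR818 are further rice families linked to repeats of this kind. OsDRM2 messenger RNA is not part of small RNA libraries and was not measured here.

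The sequences are shown because the results turn on their length and on which names share a sequence, and the capitals mark the seed (bases 2 to 8). They are written 5′ to 3′ in the DNA letters of the table. In a name, L and R give bases added to or missing from the 5′ and 3′ end of the miRBase sequence, ss gives a substitution, and p3 or p5 gives the arm of a sequence that miRBase does not name as a mature miRNA. The sequences of miR820 were as follows.
osa-miR820a_R+3: tCGGCCTCgtggatggaccaggag
osa-MIR820a-p3, osa-MIR820b-p3 and osa-MIR820c-p3: gAACTGCCttaaggaagtcgatgc
The miR812 sequences were as follows.
osa-miR812p: gACGGACGattaaagttgggcatg
osa-miR812k: aCGAACGGttaaagttggacgcgg
osa-miR812n-5p: aAGTGCAGccatgagtttccgtgc
osa-miR812v_L-1R-2_1ss15AG: tGGCTGCActtaagatgggac
Those of miR814 and miR818 were as follows.
osa-miR814a_L+3R-1: aGACACTTcatagtacaacgaatc
osa-MIR818a-p5_1ss3CT: gATATATCctagtataatgaatct

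Length was the feature that the members shared and that the choice by name had not used. Of the 10 names, 9 (90.0%) were 24 nt long, against 131 of the 469 other names (27.9%). The exception was osa-miR812v_L-1R-2_1ss15AG, of 21 nt. Small RNAs of 24 nt that begin with A are the typical cargo of the AGO4 clade. Among the 7 distinct 24-nt sequences, 3 began with A, 3 with G and 1 with T, whereas 85 of the 131 other 24-nt sequences began with A and 19 with G.

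No seed was shared between any of the 8 sequences. The closest pair was osa-miR812p and osa-miR812k, which were identical at 18 of 23 bases in the best ungapped alignment and shared a run of 10 bases. In contrast, osa-miR812n-5p held a run of 11 bases complementary to osa-miR812v_L-1R-2_1ss15AG, as sequences from facing arms of a hairpin can, and did not resemble the other miR812 entries in this way. The sequences of miR814 and miR818 were identical at 17 of 23 aligned bases, with no shared run above 5. The miR820 p3 sequence had no complementary run above 3 bases with osa-miR820a_R+3, and how they lie to each other in the hairpin was not looked up, as no hairpin sequence was used here. Base composition ran from 25% G and C in the miR818 entry to 66.7% in osa-miR820a_R+3. Genome positions are not given, since no genome of the build used for these files was used here. OsDRM2 is listed on chromosome 3 in RefSeq.

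The unit of every level below is the deposited signal, a read count that the authors had scaled between libraries, and values are given in the order of libraries 1, 2 and 3 of a group. One library stood apart before any member was considered. Sequences of 24 nt held 14.6%, 13.5% and 6.59% of the signal of the CK libraries, but 7.56%, 34.1% and 7.06% of that of the GLY libraries. The GLY libraries thus differed among themselves in the class to which nearly all members belong, and GLY 2 exceeded every other library. Depth also varied: 1 read was worth between 0.541 and 1.72 units of signal, and the estimated number of reads assigned to miRNAs ran from 96765 in GLY 3 to 298742 in CK 3. As a measure of RNA quality, names often given to pieces of rRNA or tRNA, led by peu-miR2916_R-1_2ss6AG21TG, were summed. The sums were between 3205 and 9041 in CK and between 9296 and 10211 in GLY, so every GLY library was above every CK library. Of these names limma called 0 of 5 tested, against 28 of all 251 tested names (11.2%). Entries of the reproductive triggers miR2118 and miR2275, the markers of another tissue, led by osa-MIR2118e-p5_2ss13TA19CT, summed to 91.6 to 132 in CK, whereas the GLY libraries had 343, 46.3 and 585. The part of these features in the results below was not tested.

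**Figure D1:**
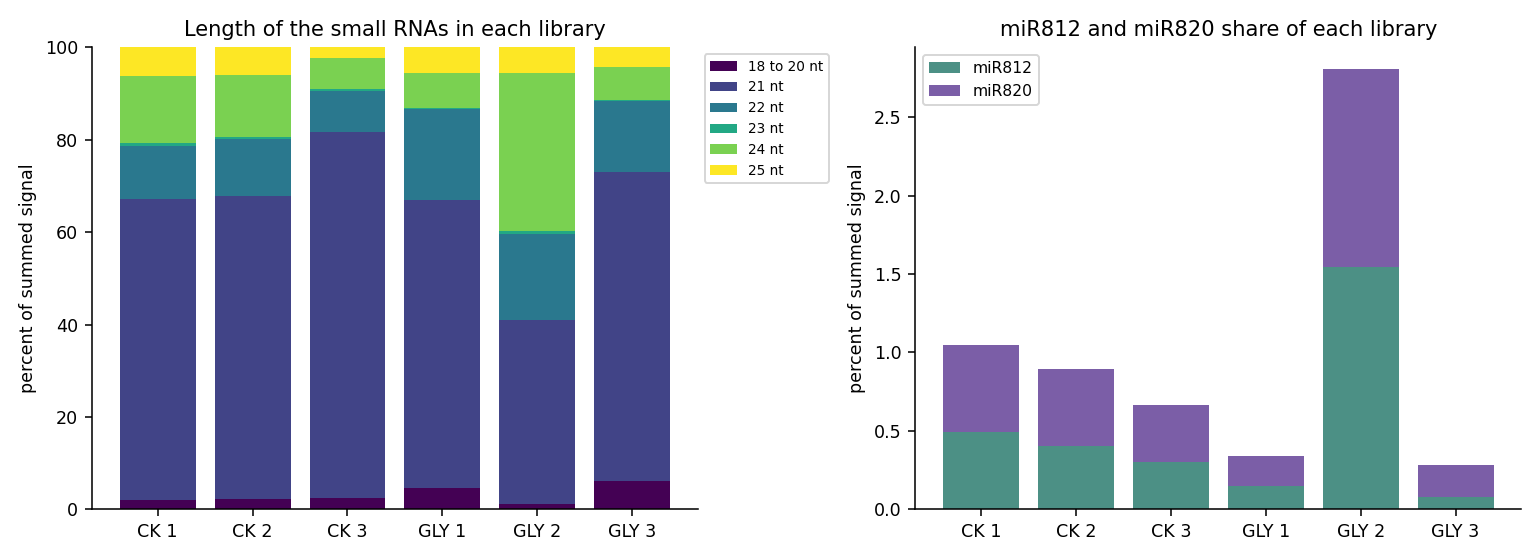
Percent of the summed signal of each library by length of the small RNA (left) and held by miR812 and miR820 (right), with names of 1 sequence counted once. The 24-nt class takes 34.1% of GLY 2 and at most 14.6% of the other libraries, and within GLY 2 miR812 takes 1.55% and miR820 1.26%, each more than in any other library.

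In all, the members made up 1.05%, 0.891% and 0.663% of the signal of the CK libraries, and 0.338%, 2.82% and 0.282% after the spray. Thus GLY 2 lay above all CK libraries, and GLY 1 and GLY 3 lay below all of them. A difference in the signal of these families cannot be told apart from a difference in the leaf cells that made them, as the libraries were of bulk tissue. The same order held for both families of any abundance, counted over distinct sequences. The CK libraries held 741, 713 and 582 of miR820, and the GLY libraries 293, 2179 and 344. For miR812 the CK libraries had 659, 582 and 489, and the GLY libraries 227, 2674 and 126.

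The entry of the mature miR820 strand, osa-miR820a_R+3, has 3 bases more at its 3′ end than the miRBase sequence. Whether this longer form acts on OsDRM2 was not tested. The signal of osa-miR820a_R+3 in the CK libraries was 143, 148 and 144, the narrowest CK spread of the tested members (145 ± 2.34, SD, n = 3). After the spray it was 104, 332 and 112 (183 ± 129, n = 3). The value of GLY 2 was 2.29 times the CK mean, and those of GLY 1 and GLY 3 were 0.718 and 0.772 times. Of the tested members, this was the one that departed least from CK in each GLY library. With limma the log2 fold change was 0.12 ± 0.51 (SE) and the adjusted p was 0.905.

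The most abundant member was the p3 sequence of miR820, which is listed under osa-MIR820a-p3, osa-MIR820b-p3 and osa-MIR820c-p3 with equal values, so that the 3 hairpins cannot be told apart and the entry counts as 1 measurement. It reached 598, 565 and 438 in CK (534 ± 84.6, SD, n = 3), against 189, 1847 and 232 after the spray (756 ± 945). Again GLY 2 was above and the other GLY libraries were below every CK library. The limma log2 fold change was -0.29 ± 0.89 (SE) with an adjusted p of 0.866. The SE was larger than the fold change itself.

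The ratio of the p3 sequence to osa-miR820a_R+3 does not depend on how a library was scaled, and it asks whether both miR820 sequences kept their proportion. The CK libraries gave ratios of 4.17, 3.83 and 3.05, and the GLY libraries 1.82, 5.57 and 2.08. The listed p3 signal was therefore the higher in all 6 libraries, by the most in GLY 2 and by the least in GLY 1. Both signals included fractions of a read, as when reads are divided between hairpins. The rule of that division is not known here, and it could shift the level of the ratio. The mean log2 ratio was lower in GLY than in CK by a difference of -0.40, with an exact two-sided permutation p of 0.4, where 3 against 3 libraries allow no p below 0.1. Single GLY libraries decided its size: the difference was -0.91 without GLY 2 (exact permutation p 0.1, the smallest attainable), -0.10 without GLY 1 and -0.20 without GLY 3 (exact permutation p 0.8 for each).

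**Figure D2:**
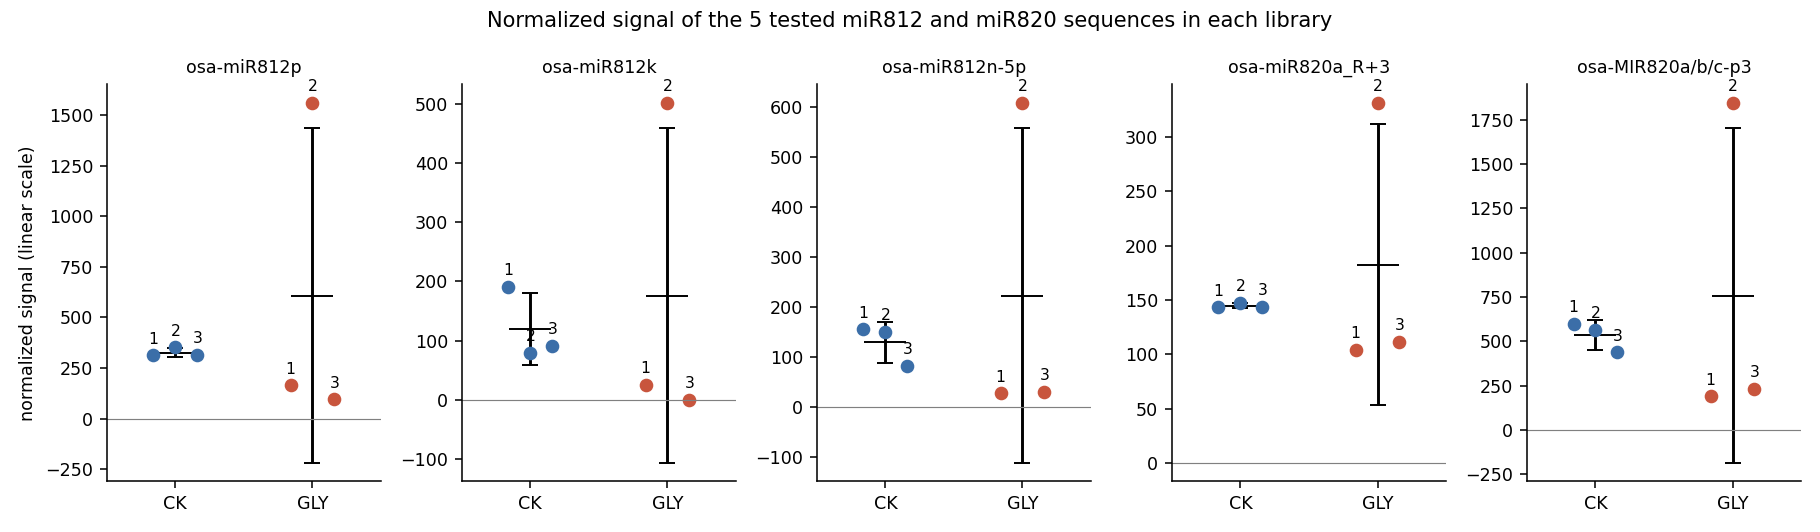
Normalized signal (linear scale) of the 5 tested sequences in each library, numbered 1 to 3 within CK (blue) and GLY (red), with the group mean (short line) and SD (bar). In every panel GLY 2 is the highest point and GLY 1 and GLY 3 lie below the CK points, for example 1847, 189 and 232 against 438 to 598 for the miR820 p3 sequence.

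Among the miR812 entries, osa-miR812p was the most abundant. Its signal was 312, 352 and 315 in CK (326 ± 21.95, SD, n = 3), against 164, 1563 and 94.6 after the spray (607 ± 828). In GLY 2 it was 4.79 times the CK mean, the highest such ratio of the tested members, and in GLY 1 and GLY 3 it was 0.504 and 0.290 times. The groups overlapped, and the limma log2 fold change was -0.17 ± 1.03 (SE) with an adjusted p of 0.924.

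The related entry osa-miR812k was the only tested member listed at 0 in a library. The CK libraries had 190, 79.8 and 90.8 (120 ± 60.9, SD, n = 3), and the GLY libraries 25.5, 502 and 0 (176 ± 283). The 0 was in GLY 3, the library of lowest depth, where 1 read was worth 1.72 units of signal, against CK values of 79.8 or more. Whether depth gave the 0 was not tested. Its limma log2 fold change of -2.24 ± 2.16 (SE) rested on that 0, and the adjusted p was 0.575. Without GLY 3 the fold change was 0.039.

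For the 5p entry osa-miR812n-5p the CK libraries had 156, 151 and 83.2 (130.0 ± 40.6, SD, n = 3), and the GLY libraries 28.1, 609.5 and 30.97 (223 ± 335). It was 4.69 times the CK mean in GLY 2, close to osa-miR812p and to osa-miR812k (4.17 times) in that library. In GLY 1 it was 0.216 times the CK mean and in GLY 3 0.238 times. The limma log2 fold change was -0.61 ± 1.23 (SE) and the adjusted p 0.790.

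Within the miR812 family, osa-miR812p was the leading entry in all 6 libraries. It held 47.4%, 60.4% and 64.4% of the family signal in the CK libraries, and 72.5%, 58.4% and 75.3% after the spray. The share of osa-miR812n-5p was 23.7%, 25.9% and 17.0% in CK, against 12.4%, 22.8% and 24.7% after the spray. For osa-miR812k the CK shares were 28.9%, 13.7% and 18.6%, and the GLY shares 11.2%, 18.8% and 0%. The shares of each of these entries overlapped between the groups. Still, both GLY 1 and GLY 3 exceeded the CK range for osa-miR812p and fell under it for osa-miR812k. GLY 1 also fell under the CK range for osa-miR812n-5p.

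The remaining 3 members were at the edge of detection and were not tested, since each was listed at 0 in 5 of the 6 libraries. The 21-nt entry osa-miR812v_L-1R-2_1ss15AG was at 8.79 in GLY 1, about 10 reads. The entry osa-miR814a_L+3R-1 was at 10.5 in GLY 2, about 7 reads, and osa-MIR818a-p5_1ss3CT was at 14.9 in GLY 2, about 10 reads. No fold is given for these entries, since the other libraries are listed at 0.

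Of the 10 members, 7 names (5 sequences) passed the filter of a signal of at least 10 in at least 3 libraries. With limma none was called at an adjusted p under 0.05 (0 of 7, and 0 of 7 at an unadjusted p under 0.05), against 28 of 251 tested names (11.2%), of which 3.59% were lower and 7.57% higher in GLY. With names of 1 sequence counted once, 0 of 5 were called against 29 of 240 (12.1%). Of the families, 0 of 2 were called against 8 of 90 (8.89%). The limma log2 fold change was -0.43 ± 1.16 (SE, adjusted p 0.937) for miR812 and -0.23 ± 0.87 (adjusted p 0.982) for miR820. The intervals are wide, and the missed threshold does not show that the families were alike in CK and GLY.

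The tested members shared their position relative to the CK range. All 7 tested names (5 sequences) lay above every CK library in GLY 2 and below every CK library in both GLY 1 and GLY 3. This pattern was found in 57 of the 251 tested names (22.7%), and it followed length: 33 of the 44 other tested 24-nt entries with a miRBase number had it (75.0%), but 1 of the 111 such entries of 21 nt (0.901%). The members thus did what most 24-nt entries did. Because GLY 2 and the other GLY libraries lay on opposite sides of CK, the groups overlapped for all tested members, while 90 of all 251 names (35.9%) had groups without overlap.

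**Figure D3:**
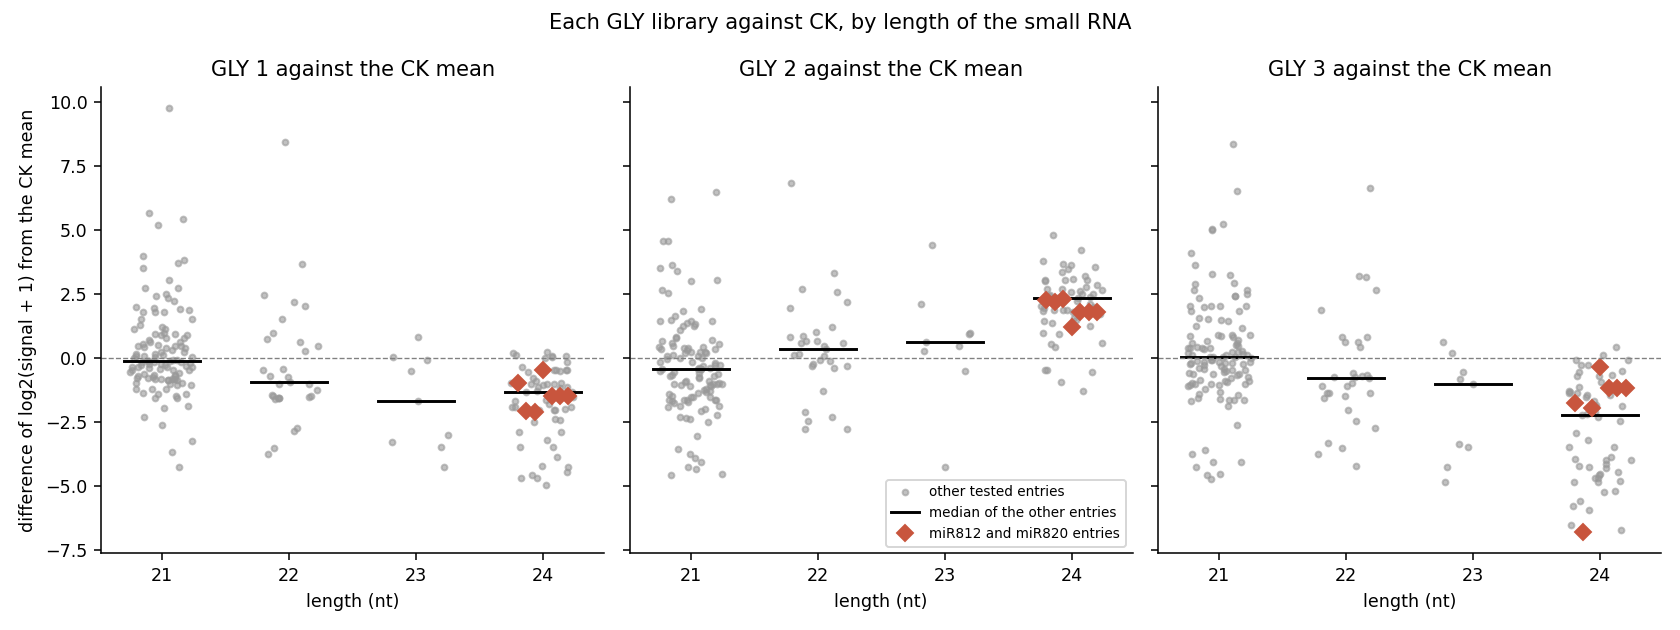
Difference of log2(signal + 1) from the CK mean for each tested entry of 21 to 24 nt, by length (nt), in GLY 1, GLY 2 and GLY 3. Points are entries, red diamonds the 7 tested miR812 and miR820 names, and black lines the medians of the other tested entries of that length, predicted ones included. The diamonds lie below 0 in GLY 1, above 0 in GLY 2 and below 0 in GLY 3, like most other 24-nt points.

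The size of the departure differed between members, and it is set here beside that of the rest of the 24-nt class. As the difference of log2(signal + 1) from the CK mean, the median of the 7 tested names was -1.48 in GLY 1, 1.80 in GLY 2 and -1.18 in GLY 3. These medians are the values of the miR820 p3 sequence, which entered under 3 names. In the same order osa-miR812p was at -0.98, 2.26 and -1.77, osa-miR812n-5p at -2.11, 2.28 and -1.98, and osa-miR812k at -2.08, 2.16 and -6.81. For the 44 other 24-nt entries the medians were -1.59, 2.34 and -2.63, and for the 111 entries of 21 nt they were -0.12, -0.46 and -0.030. In GLY 3 the tested members lay nearer to CK than the median of the other 24-nt entries, with the exception of osa-miR812k. The departures of osa-miR820a_R+3, at -0.47, 1.19 and -0.37, were the smallest of the tested members in each GLY library. This comparison of medians is a description and was not tested.

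Set against the 24-nt signal alone, the group order was not the same for all members. The p3 sequence of miR820 held 3.07%, 2.89% and 4.11% of the 24-nt signal of the CK libraries, and 1.63%, 3.13% and 1.98% after the spray. The share of osa-miR820a_R+3 was 0.737%, 0.754% and 1.35% in CK, against 0.895%, 0.561% and 0.951% after the spray, and here GLY 2 was the lowest library, not the highest. For osa-miR812p the CK shares were 1.61%, 1.80% and 2.96%, and the GLY shares 1.41%, 2.65% and 0.805%. All members together made 7.20%, 6.61% and 10.1% of the 24-nt signal in CK, against 4.40%, 8.26% and 3.995% after the spray. On this scale GLY 1 and GLY 3 lay below the CK range, and GLY 2 lay within it. A large and uneven part of the 24-nt signal came from gma-miR5368_L+3R+2, which did not share the course of the members. It held 7882 of 19443 units in CK 1, 9450 of 19583 in CK 2 and 3814 of 10644 in CK 3. In the GLY libraries it held 7562 of 11630, 8745 of 59065 and 8725 of 11757. The order of the libraries on this scale rested on that entry. With it left out of the 24-nt signal, all members together lie within the CK range in GLY 1 and GLY 3 and below it in GLY 2. The p3 sequence of miR820 then also has its lowest share in GLY 2, as osa-miR820a_R+3 does. The order above is therefore not a result about the members alone.

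**Figure D4:**
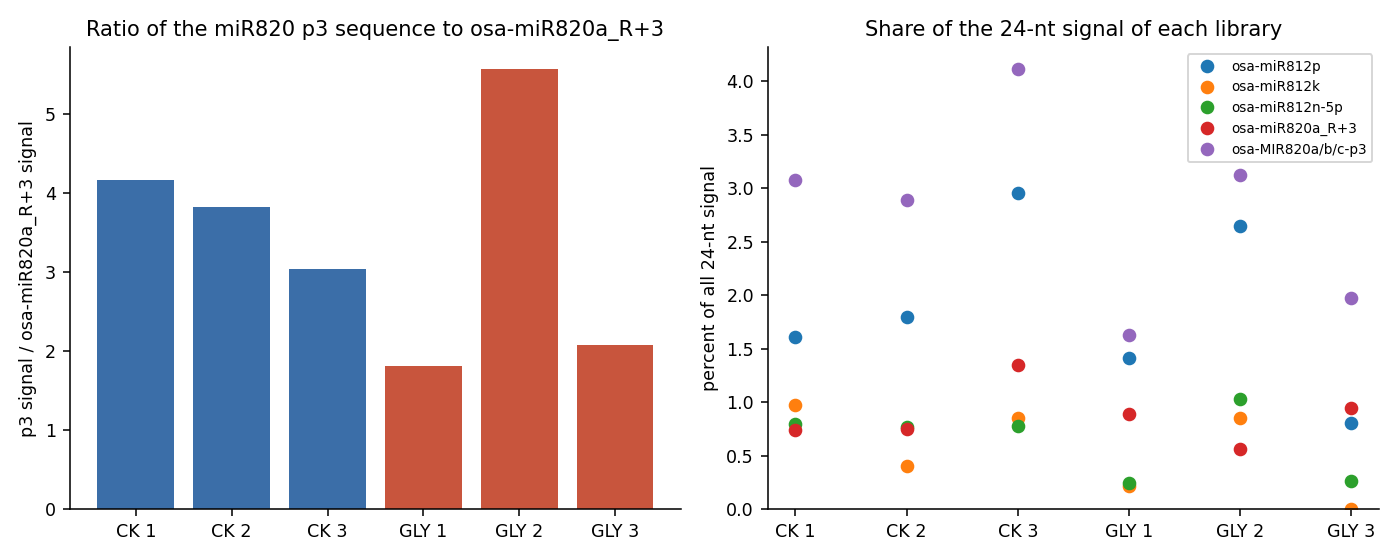
Ratio of the miR820 p3 sequence to osa-miR820a_R+3 in each library (left, bars from 0; CK blue, GLY red) and percent of the 24-nt signal held by each tested sequence (right, 1 point per sequence and library). The ratio is highest in GLY 2 (5.57) and lowest in GLY 1 (1.82), and osa-miR820a_R+3 has its lowest share of the 24-nt signal in GLY 2 (0.561%). The 24-nt signal includes gma-miR5368_L+3R+2, on which the order of the libraries in the right panel depends.

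The outcome of the group comparison turned on GLY 2. Without that library, 6 of the 7 tested names (4 of 5 sequences) were called lower with limma. Of all 251 names, 34.3% were then called lower and 49.8% in either direction, and of all distinct sequences 32.5% were called lower. Among the 44 other 24-nt entries 27 (61.4%) were then lower, and among the 111 entries of 21 nt 17 (15.3%). The fold changes without GLY 2, on the log2 scale with SE and limma adjusted p, were -2.05 ± 0.36 (0.00520) for osa-miR812n-5p and -1.38 ± 0.30 (0.0118) for osa-miR812p. They were -4.45 ± 1.29 (limma adjusted p 0.0322) for osa-miR812k and -1.33 ± 0.26 (0.00727) for the p3 sequence of miR820. The size for osa-miR812k drew on its 0 in GLY 3, which depends on the pseudocount. The tested member that was not called was osa-miR820a_R+3, at -0.42 ± 0.24 (limma adjusted p 0.173). The families were both lower without GLY 2, with miR812 at -1.76 ± 0.33 (limma adjusted p 0.00616) and miR820 at -1.23 ± 0.24 (0.00650), where 33.3% of all families were called lower and 52.2% in either direction.

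Leaving out another GLY library moved the estimates to the other side. Without GLY 1 or without GLY 3, the fold changes of both families and of all tested entries were above 0, apart from osa-miR812k without GLY 1, and 0 of 7 members were called by limma, against 8.37% and 5.58% of all tested names. The tested members hence had no direction in GLY that all 3 GLY libraries shared. Nothing in the labels sets GLY 2 apart from GLY 1 and GLY 3, and whether it differs in plant, in RNA or in library preparation was not tested.

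**Figure D5:**
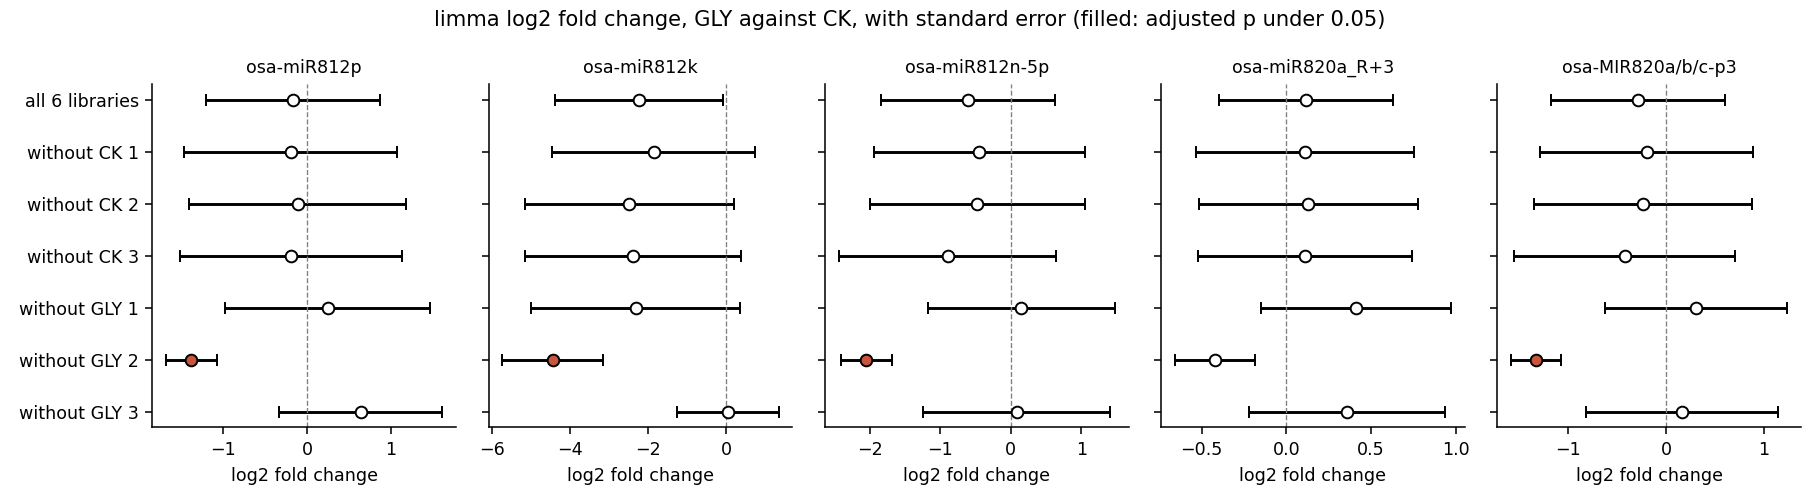
Log2 fold change of GLY against CK (limma, with SE) of the 5 tested sequences with all 6 libraries and with each library left out in turn. Filled points have an adjusted p under 0.05 and occur only without GLY 2, for 4 of the 5 sequences, while the points without GLY 1 or without GLY 3 lie mostly above 0.

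Entries outside these families followed the same course over the libraries. The likeness to osa-MIR820c-p3 was measured as the root mean square difference of log2(signal + 1) over the 6 libraries, with each entry centred on its own mean, among 244 other tested entries. The nearest were osa-miR2877 (0.320), osa-miR437_R+3 (0.346), osa-miR5159 (0.350), osa-miR1429-5p_R+3 (0.352) and osa-MIR1873-p5 (0.366), all of 24 nt. Of the 20 nearest entries, 17 were 24 nt long. By the same measure osa-miR812p lay at 0.384 with 6 entries nearer, osa-miR812n-5p at 0.457 with 13, osa-miR820a_R+3 at 0.565 with 17 and osa-miR812k at 2.13 with 213. The distance of osa-miR812k drew on its 0 in GLY 3, where its log2 difference from the CK mean was -6.81 and depends on the pseudocount. These distances describe 6 libraries and carry no test.

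Numbered close to the members, other entries from miR806 to miR821 were of miR810 only, with 3 names. Of its 2 tested names 1 was called higher and none lower, and its most abundant entry, osa-MIR810b-p3, had 207, 197 and 260 in the CK libraries and 828, 589 and 786 after the spray. It was above CK in every GLY library, unlike the members. The families miR162, which targets DCL1, and miR168, which targets AGO1, act on the small RNA machinery itself, and 0 of their 4 tested entries were called with limma. The most abundant entry of these families, osa-miR168a-3p_L-3, is named for the 3p arm, and whether it acts on AGO1 was not tested. It had 20660, 19615 and 25384 in the CK libraries and 10847, 15913 and 18193 after the spray. Its GLY values were thus all below its CK values, where 35.9% of all tested names had groups without overlap. Over all other 24-nt entries with a number, 0 of 44 were called higher and 1 lower, with a median log2 fold change of -1.02, beside -0.29 for the tested members and -0.46 for all tested names. The most abundant of these, gma-miR5368_L+3R+2, had 7882, 9450 and 3814 in the CK libraries and 7562, 8745 and 8725 after the spray, and so did not share the position of the members in GLY 2 above every CK library. For the 111 entries of 21 nt, which osa-miR168a-3p_L-3 led in level, 13 were called higher and 4 lower, with a median of -0.37.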

How the data were processed

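Small RNA of 6 leaf libraries was sequenced single-end on an Illumina HiSeq. The authors trimmed adaptors, removed short and low-complexity reads and reads of other RNA classes, and mapped the rest to miRBase 20 hairpins with ACGT101-miR. The deposited signal is named normalized counts per the file headers. The sources used here do not give how the authors scaled it, and DESeq, which they used, needs counts.

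Of 582 rows, 103 exact repeats were dropped. The fit was limma 3.58.1 in R 4.3.3 (trend and robust options) on log2(signal + 1), GLY against CK, for names at 10 or more in at least 3 libraries. This replaced the count model planned in case of whole counts. P-values were adjusted by Benjamini-Hochberg over all tested names. Fold changes are on the log2(signal + 1) scale, which understates changes of low entries. Families were sums over all names of one number, so the miR820 p3 sequence entered 3 times. Low values (under 60) were whole multiples (within 0.01) of one step per library in 78.5% to 83.5% of cases, which gave the estimated reads. Values for osa-miR812p, osa-miR820a_R+3 and the p3 sequence included fractions of a read, as when reads are divided between hairpins. The fit was also run on simulated data with known changes, in which both groups had the spread of CK. It called 85.7% of the changed entries, and 2.70% of its calls were false. The tested members had a wider spread in GLY than in CK, so this result does not carry over to them.

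Every member was named. Other entries named were the 5 of nearest pattern and the most abundant of each list. The members and lists were chosen with earlier results of these data known. The p-values reflect the spread among libraries alone, which may be technical. Pseudocounts, filters, scalings, moderation, a replicate block and leaving out each library were tried, and rescaling to the 24-nt total and counting shared sequences once in families were added after seeing the data.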

Additional observations from a re-analysis of the deposited data

How the results depend on the processing

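Of the comparisons of the 7 tested members with all 6 libraries, 67 kept their direction and their side of the threshold and 3 changed direction: osa-miR812p became 0.042 under median-of-ratios scaling, and osa-miR820a_R+3 became -0.045 with equal library totals and -0.25 with an equal total of the other 24-nt sequences. The members called stayed at 0 in these. The number of called names was 14 under upper-quartile scaling, 6 with the replicate block and 4 with an equal 24-nt total, and that of called families was 5 without the filter on low values, 2, 4 and 0 in turn. Leaving out each library gave 2 to 125 called names, 3 to 47 families and 0 to 6 members. It gave log2 fold changes of -1.76 to 0.45 for the miR812 family (0.022 without GLY 1, 0.45 without GLY 3) and -1.23 to 0.33 for the miR820 family (0.33 and 0.20). For single entries the ranges were -1.38 to 0.64 for osa-miR812p (0.24 without GLY 1), -4.45 to 0.039 for osa-miR812k, -2.05 to 0.15 for osa-miR812n-5p (0.081 without GLY 3), -0.42 to 0.41 for osa-miR820a_R+3, and -1.33 to 0.31 for osa-MIR820a-p3, osa-MIR820b-p3 and osa-MIR820c-p3 (0.16 without GLY 3). Counting the p3 sequence once put the miR820 family at -0.16 ± 0.82 (limma adjusted p 0.974).

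The labels link libraries of the same number by nothing but that number, and their deviations from the group means correlated at -0.39, 0.094 and 0.47. With 3 libraries in a group, these correlations cannot show whether the libraries were paired. The replicate block left 6 of 28 calls in number, changed no call of a member, and gave the miR820 ratio an exact p of 0.5. The difference in that ratio stayed below 0 under every alternative tried, but ranged from -0.91 to -0.10 when single libraries were left out. With 3 libraries in a group, a spread as wide as that of GLY hides all but very large differences. The shallow libraries also limit the low entries, since 1 read was worth 1.72 in GLY 3.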
